A study of Mus musculus with 8 samples.

Results

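Heat shock proteins and the chaperones that work with them were followed in mouse heart through 48 gene symbols. They were chosen by name as rows of a table of read counts, and they fell on 49 of its 27304 rows, because Hspa14 occurs on 2 rows. All 49 passed the filter on low counts and were tested among 20093 genes. Bulk RNA was sequenced from the hearts of male mice of the inbred strain 129/Sv, whose age the labels do not give. The 4 control libraries came from mice on a standard diet for 13 weeks, and the 4 adenine libraries from mice on food with 0.15% adenine for the same 13 weeks. The control libraries are titled Sham in the labels and are called control here. Adenine in the food damages the renal tubules and is a common way to produce chronic kidney disease in rodents, and the labels describe the same housing and snap-freezing for both groups. The labels do not say whether each library is a separate animal, so p-values measure the spread between these samples, which may in part be technical.

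Chaperones bind proteins that are not yet folded, or no longer folded, and keep them from clumping. The HSP70 family takes up exposed stretches with the help of J-domain proteins, which deliver clients and spur its ATPase, and of exchange factors such as the HSP110 and BAG proteins, which release them. HSP90 acts later on kinases, steroid receptors and other clients with its own cochaperones, the TRiC ring folds actin and tubulin, and small heat shock proteins hold damaged proteins in a state that can be refolded. In heart muscle, αB-crystallin (Cryab) and its relatives sit on the sarcomere, BAG3 with HSPB8 clears worn sarcomere proteins, and HSP60 with HSP10 folds proteins inside the many mitochondria. Heat shock factor 1 (HSF1) switches on the inducible members by binding inverted repeats of GAA in front of them.

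The DNA around the start sites of these genes was searched for that repeat. RefSeq promoter windows on GRCm38.p6, from 250 bases before to 50 after a start site, matched 38 of the 48 symbols. The full heat shock element was searched as the units GAA, TTC and GAA with any 2 bases between neighbours, and the short one as GAANNTTC or TTCNNGAA, on both strands, so each full element also contains short ones. A full element was present in 5 of the 38 members (13.2%) and in 179 of 27025 genes in the windows (0.662%). A short element was present in 18 members (47.4%) and in 4587 genes (17.0%). The 5 were Chordc1, Hsph1, Dnajb6 and the head-to-head pair Hspd1 and Hspe1, which share the same run. Chordc1, Hspd1 and Hsph1 are 3 of the 11 rows, among 49, with an unadjusted edgeR p under 0.05 described below. Fkbp4, with the lowest p, held no full element in the window, and the fold change of Dnajb6 was near 0. A link between the element and the diet difference was not tested. The next sequences show the runs of the 5 genes within at most 30 bases, in lower case with the full element in capitals.
Chordc1, chromosome 9, plus strand: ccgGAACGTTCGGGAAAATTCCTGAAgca
Hspd1 and Hspe1, chromosome 1, plus strand: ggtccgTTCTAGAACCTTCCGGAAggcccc
Hsph1, chromosome 5, minus strand: gctgcagaTTCTGGAAAGTTCtcctcagt
Dnajb6, chromosome 5, plus strand: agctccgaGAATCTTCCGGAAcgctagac
The run at chr9:18292260-18292288 straddles the Chordc1 start and holds 3 overlapping full elements. The run at chr1:55088053-55088082 lies from -95 to -66 relative to the Hspe1 start, with the start site as base 1, and holds 2. The others are at chr5:149636280-149636308 and chr5:29735844-29735872 with 1 each. The first lies from 8 to 36 relative to a Hsph1 start, and so after it, and the second from -54 to -26 relative to a Dnajb6 start. Some members without a full element in the window, among them Fkbp4, Dnaja1 and Hspb1, held short elements, shown here in capitals as the counterpart.
Fkbp4, chromosome 6, minus strand: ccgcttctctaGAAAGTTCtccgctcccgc
Dnaja1, chromosome 4, plus strand: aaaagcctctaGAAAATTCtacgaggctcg
Hspb1, chromosome 5, plus strand: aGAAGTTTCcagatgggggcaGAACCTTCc
They lie at chr6:128438789-128438818, chr4:40722333-40722362 and chr5:135887801-135887830. A match of letters is a description of the window and does not show binding.

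**Figure D1:**
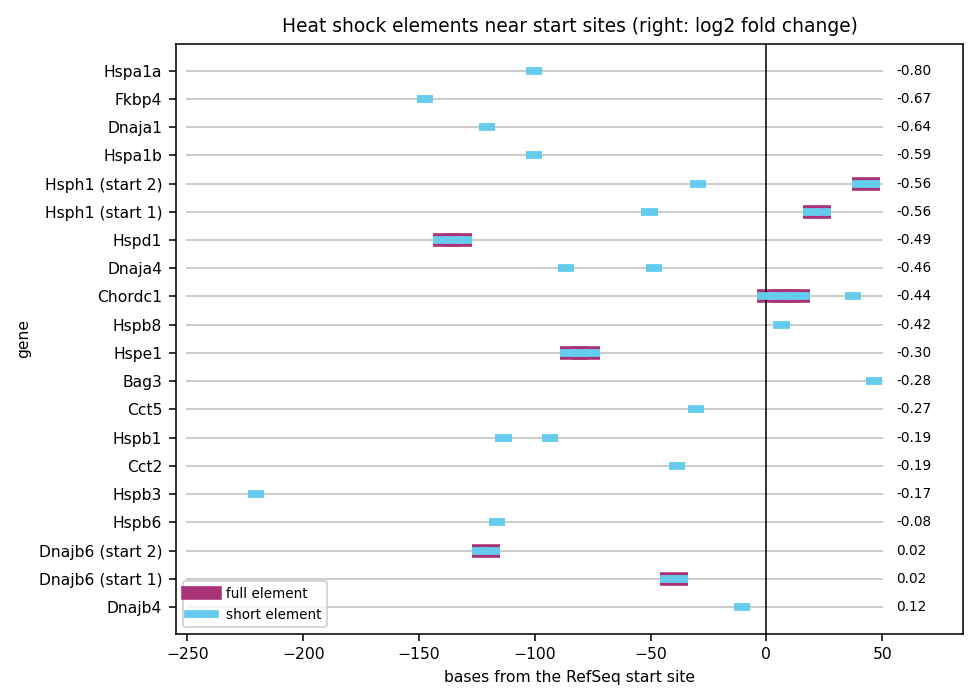
Position of full (purple) and short (light blue) heat shock elements in bases from the RefSeq start site, for each start site of the 18 members with a match, with the log2 fold change (adenine minus control) at the right. Full elements appear in Hsph1, Hspd1, Chordc1, Hspe1 and Dnajb6, whose fold changes run from -0.56 to 0.02.

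The inducible HSP70 genes Hspa1a and Hspa1b, on chromosome 17, are near-copies, and the 150 bases before their starts are printed to show how near. The short element is in capitals.
Hspa1a, chromosome 17, minus strand: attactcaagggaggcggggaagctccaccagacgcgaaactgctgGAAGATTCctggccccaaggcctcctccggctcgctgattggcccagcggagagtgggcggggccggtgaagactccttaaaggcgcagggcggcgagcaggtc
Hspa1b, chromosome 17, minus strand: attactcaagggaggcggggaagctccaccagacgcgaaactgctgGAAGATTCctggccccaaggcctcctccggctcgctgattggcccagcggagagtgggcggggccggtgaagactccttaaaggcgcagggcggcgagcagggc
These stretches, chr17:34972157-34972306 and chr17:34959239-34959388, are identical at 149 of 150 positions, and the full 250 bases at 247. The transcripts are alike too, since 60.3% of the 50-base words of Hspa1a and 62.3% of those of Hspa1b also occur in another gene, nearly all of them in the partner. Reads could therefore be split between the copies, and the treatment of such reads in the authors' counting is not known from the sources at hand. Annotated transcripts of other genes, among them pseudogenes, shared 48.8% of the words of Hspb1, 47.5% of Hsp90aa1, 39.7% of Hspd1 and 38.6% of Hspa8. They shared 18.4% of the words of Hspe1, 17.7% of Dnajb6 and 11.9% of Dnaja1. The levels of these genes are therefore uncertain, by an amount that the shares do not give.

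No member passed an adjusted p of 0.05 in edgeR in either direction, beside 0.0398% of all genes called higher (8 of 20093) and 0% called lower. The lowest adjusted p among the members was 0.228, for Fkbp4. At an unadjusted p of 0.05, 11 of the 49 rows were lower and 0 higher, where 6.63% of all genes were lower and 10.9% higher. Every adenine library lay below every control for 5 members, Fkbp4, Chordc1, Hspd1, Dnajb2 and St13, and above every control for 0, beside 3.84% and 3.45% of all genes. DESeq2 called 1 member lower, Fkbp4 (adjusted p = 0.0486), and 0 higher, where it called 0.991% of all genes lower and 0.866% higher, and limma-voom called 0 members. Intervals given below are 95% intervals of the log2 fold change of single genes, not widened for the number of genes.

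The sign of the difference was one-sided, but it was so for most genes of like abundance. The log2 fold change, adenine minus control, was negative in 45 of 49 rows, with a median of -0.27, and over all genes tested it was negative in 45.8% with a median of 0.05. Of the 49 rows, 44 had a mean of at least 10 CPM (the read count relative to the TMM-scaled library size), and the 8428 genes above that level were negative in 77.9% with a median of -0.15. Among those genes 12.3% were lower at an unadjusted p of 0.05 and 6.85% were lower without overlap, against 22.4% and 10.2% of the members. Upper-quartile scaling, which moved the median of all genes by 0.14, put the members' median at -0.12 with 39 negative and that of the genes above 10 CPM at -0.0055. The members' median lay between 0.07 and 0.17 log2 units below that of the genes above 10 CPM under every setting tried, and this gap has no test.

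**Figure D2:**
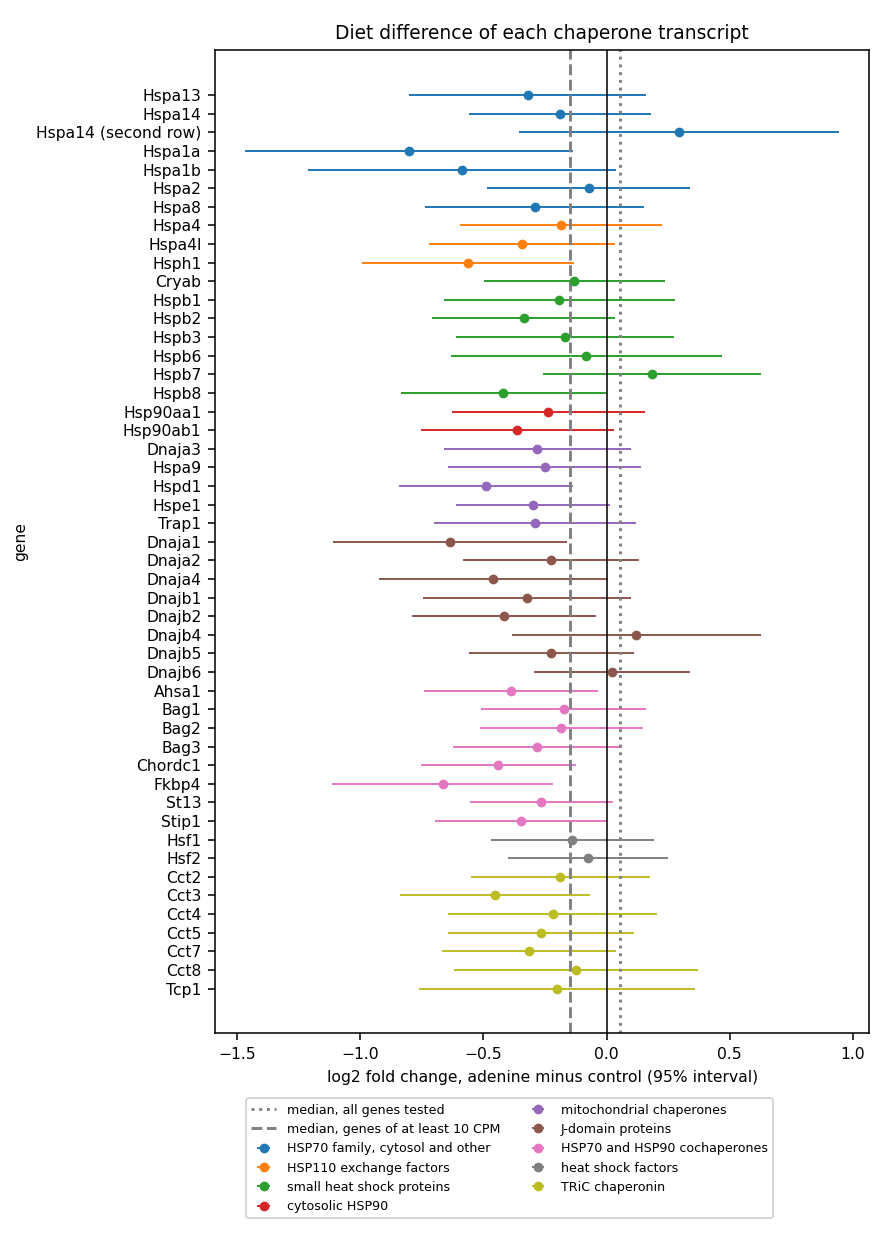
Log2 fold change of each of the 49 rows (points) with its 95% interval (lines), coloured by chaperone class, with the medians of all genes tested (dotted) and of genes of at least 10 CPM (dashed). Most points lie left of 0, with a median of -0.27, and 11 intervals do not reach 0.

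Fkbp4 encodes FKBP52, an HSP90 cochaperone that favours steroid receptor activity, and it had the lowest p of the members. Fkbp4 (ENSMUSG00000030357, chromosome 6, 128429735 to 128438677) stood at 226, 234, 184 and 179.7 CPM in control 1 to control 4. In adenine 1 to adenine 4 it stood at 152, 148, 79.6 and 139 CPM. Every adenine library lay below every control library, and adenine 3 was the lowest by far. The log2 fold change was -0.67 (SE 0.21, 95% interval -1.11 to -0.22), and without adenine 3 it was -0.50 with an adjusted p of 0.0954. Its relative Fkbp5, which encodes FKBP51 and restrains the same receptors, pointed the other way, at 12.5 to 15.3 CPM with the standard diet and 24.5 to 58.7 CPM with adenine, with a log2 fold change of 1.49 (SE 0.26, adjusted p = 0.0744). Fkbp5 passed without adenine 3, with 1.36 and an adjusted p of 0.0254.

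Among the other cochaperones, Chordc1, whose product CHORDC1 (morgana) binds HSP90, had the full elements shown above. Chordc1 (ENSMUSG00000001774, chromosome 9, 18292125 to 18317442) was at 35.9, 39.8, 33.4 and 26.9 CPM in the controls and at 23.3, 24.3, 26.7 and 25.9 CPM in the adenine libraries. The groups touched without overlapping, since control 4 exceeded adenine 3 by little. Its log2 fold change was -0.44 (SE 0.15, interval -0.76 to -0.13, adjusted p = 0.236). St13 encodes HIP, which steadies the HSP70 complex with its client, and was at 86.7, 96.2, 82.0 and 74.6 CPM against 67.97, 67.3, 73.0 and 74.3 CPM, again without overlap but with control 4 and adenine 4 almost level (log2 fold change -0.26, SE 0.13). Bag1, an exchange factor of HSP70 and the cochaperone with the highest mean CPM, was at 206, 229.6, 237 and 189 CPM against 214, 172, 172 and 204 CPM, and adenine 1 and adenine 4 lay within the control range (log2 fold change -0.17, SE 0.16). All 8 cochaperones were negative, with a median of -0.31, and 4 had an unadjusted p under 0.05: Fkbp4, Chordc1, Ahsa1, the activator of the HSP90 ATPase (-0.39, SE 0.16), and Stip1, which bridges HSP70 and HSP90 (-0.35, SE 0.16). Bag3, the partner of HSPB8 in muscle, had -0.28 (SE 0.16) and Bag2, an inhibitor of client ubiquitination, -0.18 (SE 0.15). Summed over the class, cochaperones held 792 to 991 CPM in the controls and 603 to 767 CPM in the adenine libraries, without overlap. The sums of every other class overlapped between diets, and these sums have no test.

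The HSP70 family holds constant and inducible forms. Hspa8, which encodes the constant form HSC70, was at 1221, 1242, 882 and 821 CPM in the controls and 806, 697, 1005 and 896 CPM in the adenine libraries. Controls 3 and 4 lay within the adenine range, and the log2 fold change was -0.29 (SE 0.21). Hspa1a was at 5.03, 7.45, 3.20 and 3.59 CPM in the controls and 2.80, 2.51, 2.01 and 3.74 CPM in the adenine libraries, on 41 reads or more per library. Hspa1b was at 6.48, 9.52, 3.65 and 4.28 CPM in the controls and 3.92, 3.48, 3.73 and 4.79 CPM in the adenine libraries. In both copies control 2 was the highest library and adenine 4 lay above 2 of the controls. Their log2 fold changes were -0.80 (SE 0.31, interval -1.47 to -0.14) for Hspa1a and -0.59 (SE 0.29, interval -1.21 to 0.04) for Hspa1b, with adjusted p-values of 0.263 and 0.301. Without control 2 they were -0.52 and -0.28. The sum of both copies does not depend on how their shared reads were split between them, but it lacks any that the authors' counting left out. It was 10.8 ± 4.57 CPM with the standard diet and 6.74 ± 1.26 CPM with adenine (SD, n = 4). Its exact permutation p, two-sided over 70 assignments with a smallest possible value of 0.0286, was 0.114, and 0.393 after adjustment over 5 quantities. The difference in mean log2 of the sum was -0.61, and -0.36 without control 2. Relative to Hspa8 CPM, that sum was 0.0101 ± 0.00251 with the standard diet and 0.00804 ± 0.00163 with adenine (SD, n = 4, exact permutation p = 0.257, adjusted p = 0.393).

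The other HSP70 relatives overlapped between diets. Hspa13, a microsomal form, had -0.32 (SE 0.22) and reached 14.0 CPM in adenine 3, where adenine 1, 2 and 4 had 7.63 to 8.93 CPM. Without adenine 3 it had -0.57 with an adjusted p of 0.0909. Hspa2, best known from germ cells, had -0.07 (SE 0.19) and turned positive with upper-quartile factors (0.07). Hspa14 had -0.19 on its main row and 0.30 on the second row, a locus that GENCODE names Gm45902 and whose exons overlap Hspa14 on the same strand, so the rows cannot be taken as independent.

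HSP110 proteins reload HSP70. Hsph1, which encodes HSP105 and has a full element in its window, was at 36.0, 35.0, 33.0 and 22.4 CPM in the controls and 16.3, 21.1, 19.0 and 29.1 CPM in the adenine libraries. Control 4 and adenine 4 crossed over, and the other 3 libraries of each group were well apart. The log2 fold change was -0.56 (SE 0.20, interval -0.99 to -0.13, adjusted p = 0.249). Hspa4l was at 29.3, 40.1, 41.5 and 27.1 CPM against 23.0, 24.3, 30.6 and 30.9 CPM, and Hspa4, which had the highest mean CPM of the class, at 138, 154, 142 and 94.8 CPM against 103, 98.6, 150 and 113 CPM. Both overlapped between diets, with -0.34 (SE 0.17) and -0.18 (SE 0.19).

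Cytosolic HSP90 comes from an inducible gene, Hsp90aa1, and a constant one, Hsp90ab1. Hsp90ab1 was at 926, 998, 990.2 and 909 CPM in the controls and 784, 683, 599 and 911 CPM in the adenine libraries. Adenine 4 reached the control range and the other 3 did not, and the log2 fold change was -0.36 (SE 0.18, adjusted p = 0.307). Hsp90aa1 was at 206, 212, 240.0 and 183 CPM against 159, 134, 211 and 211 CPM, with -0.24 (SE 0.18). Adenine 3, the lowest library for Hsp90ab1, was not low for Hsp90aa1. The ratio of Hsp90aa1 to Hsp90ab1 CPM was 0.352 in that library, where adenine 1, 2 and 4 had 0.196 to 0.231. By diet it was 0.220 ± 0.0175 for the standard food and 0.2455 ± 0.0729 for adenine (SD, n = 4, exact permutation p = 0.771, also after adjustment). The difference in mean log2 ratio was 0.12, and -0.07 without adenine 3.

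**Figure D3:**
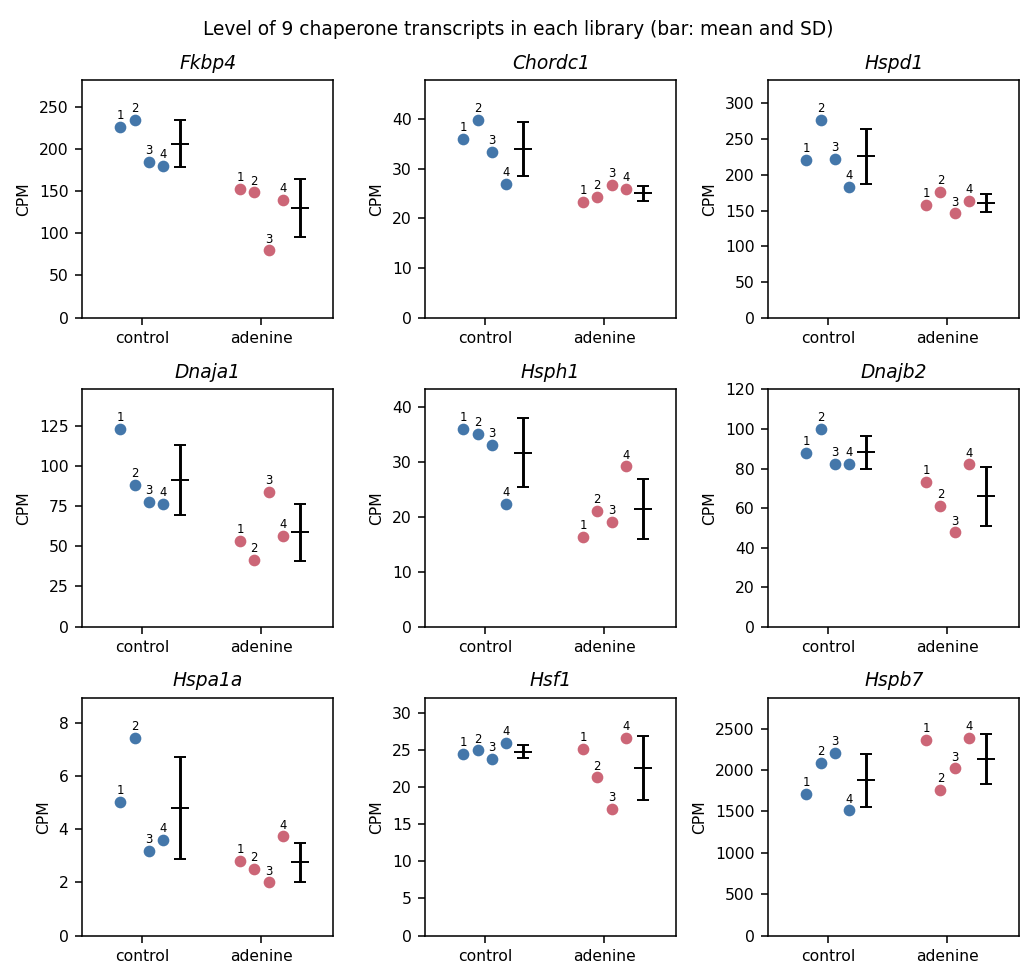
CPM of 9 transcripts in each library (numbered points; blue, control; red, adenine) with the mean and SD (bars, n = 4), on axes from 0. Fkbp4, Chordc1, Hspd1 and Dnajb2 do not overlap between diets, whereas Hsf1 and Hspb7 do.

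Mitochondrial chaperones were negative in all 5 cases, with a median of -0.29. Hspd1 and Hspe1 encode HSP60 and its lid HSP10 and are transcribed away from each other. Hspd1 (ENSMUSG00000025980, chromosome 1, 55077835 to 55088243) was at 221, 277, 222 and 183 CPM in the controls and 158, 176, 146 and 163 CPM in the adenine libraries. No adenine library reached the lowest control, and the log2 fold change was -0.49 (SE 0.16, interval -0.84 to -0.14, adjusted p = 0.236). Hspe1 (ENSMUSG00000073676, chromosome 1, 55088132 to 55091307) was at 108, 119.5, 105 and 95.5 CPM against 92.1, 72.1, 95.5 and 88.0 CPM, with -0.30 (SE 0.14) and values of control 4 and adenine 3 that were level. In GENCODE, exons of both genes overlap on opposite strands, and no source used here gives the strand setting of the counting, so reads of the overlap cannot be told apart. The Hspe1 to Hspd1 ratio was 0.478 ± 0.0371 for the standard food and 0.547 ± 0.103 for adenine (SD, n = 4, exact permutation p = 0.314, adjusted p = 0.393). Hspa9, the mitochondrial HSP70 and the gene with the highest mean CPM of the class, was at 480.4, 622, 512 and 368 CPM in the controls and a narrow 414, 398, 419 and 434 CPM in the adenine libraries, within the control range. Trap1, the mitochondrial HSP90, had -0.29 (SE 0.19) with its lowest library control 4. Dnaja3, the J-domain partner of HSPA9, had -0.28 (SE 0.18) with its lowest library adenine 3. Mitochondrially encoded transcripts took 31.0 to 35.6% of counts in the controls and 34.2 to 41.9% in the adenine libraries, and removing them before scaling again gave a median of -0.29 for this class. That median was -0.17 without control 2 and -0.12 with upper-quartile factors.

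J-domain proteins ranged from -0.64 to 0.12. Dnaja1, a main partner of HSC70, was at 123.1, 88.0, 77.8 and 76.5 CPM in the controls and 53.2, 41.4, 83.6 and 56.6 CPM in the adenine libraries. Only adenine 3 entered the control range. Its log2 fold change was -0.64 (SE 0.22, interval -1.11 to -0.16, adjusted p = 0.244), and without adenine 3 it was -0.87 with an adjusted p of 0.0572. Dnajb2, a neuronal and muscle form that hands clients to the proteasome, was at 87.9, 100.1, 82.3 and 82.5 CPM against 73.2, 61.3, 47.7 and 82.1 CPM. Its groups did not overlap, but adenine 4 lay just under the lowest control (log2 fold change -0.42, SE 0.17). Dnaja2, another partner of HSC70 and the gene with the highest mean CPM of the class, was at 160.3, 186, 197 and 127 CPM against 135, 134, 155 and 149 CPM, all within the control range. Dnajb1, the classical inducible HSP40, was between 10.03 and 21.2 CPM over the 8 libraries and had -0.32 (SE 0.20). Dnaja4 had -0.46 (SE 0.22) and Dnajb5 -0.22 (SE 0.15). Dnajb6, which guards against the clumping of muscle proteins and has a full element, had 0.02 (SE 0.15, interval -0.29 to 0.34), and Dnajb4, which acts on filamin in muscle with BAG3, had 0.12 (SE 0.23) with its highest value, 141 CPM, in adenine 3. Both had negative values without adenine 3 (-0.06 and -0.14).

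Small heat shock proteins included the most abundant members per exon length. In the controls, Hspb7, a cardiac form, had 678 CPM per kilobase of exon, Cryab 483, Hspb6 229, Hspb1 169 and Hspb8 120.4, beside 319 for Hsp90ab1, 242 for Hspa8, 1.62 for Hspa1a and 1.52 for Hsf2. These lengths join all annotated exons of a gene, so genes with long rare isoforms come out low. Hspb7 was at 1708, 2083, 2206 and 1514 CPM in the controls and 2367, 1761, 2020.0 and 2391 CPM in the adenine libraries, the only member of the class with a positive log2 fold change (0.19, SE 0.20, interval -0.26 to 0.63) under TMM scaling, while Hspb6 and Cryab turned positive with upper-quartile factors (0.07 and 0.017). Hspb8, the partner of BAG3, was at 217, 257, 276 and 189.6 CPM against 185, 143, 147 and 227 CPM, with adenine 4 inside the control range (log2 fold change -0.42, SE 0.19). Hspb1, which encodes HSP25 in mice and is induced by HSF1, was at 168, 225, 142 and 163 CPM against 142, 103, 158 and 209 CPM, with -0.19 (SE 0.22). Without both libraries numbered 2 the value for Hspb1 was 0.12.

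Hspb2 is the head-to-head neighbour of Cryab, and their exons overlap on opposite strands in GENCODE. Hspb2 was at 38.0, 44.7, 31.3 and 31.7 CPM in the controls and 33.0, 21.2, 31.4 and 29.8 CPM in the adenine libraries, with -0.34 (SE 0.17). Cryab was between 662 and 799 CPM in the controls and between 578 and 760.3 CPM in the adenine libraries, with -0.13 (SE 0.17). The Hspb2 to Cryab ratio was 0.0509 ± 0.00681 for the standard food and 0.0445 ± 0.00870 for adenine (SD, n = 4, exact permutation p = 0.286, adjusted p = 0.393). Hspb6, which binds sarcomeric and signalling proteins, had 259.5 CPM in adenine 3, where adenine 1, 2 and 4 had 508 to 614 CPM and the controls 431 to 637 CPM. Its log2 fold change was -0.08 (SE 0.25), and 0.12 with adenine 3 left out. Hspb3, a muscle form, was between 6.145 and 10.04 CPM (log2 fold change -0.17, SE 0.21). Summed over the class, small heat shock proteins held 3573 ± 502 CPM in the controls and 3650 ± 560 CPM in the adenine libraries (SD, n = 4), the only class whose summed mean was not lower on adenine. Hspb7 made up most of that sum, at a mean of 1878 CPM in the controls and 2135 CPM on adenine, while 6 of the 7 members were negative. The class median was -0.17, and it was -0.080 without control 2, -0.090 without adenine 3 and -0.023 with upper-quartile factors.

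TRiC is a double ring of related subunits, and 7 of them were members. Cct3 was at 120.0, 112, 87.2 and 84.96 CPM in the controls and 73.5, 54.9, 79.2 and 87.5 CPM in the adenine libraries, with a log2 fold change of -0.45 (SE 0.18, adjusted p = 0.265). Cct7 was at 116, 136, 97.3 and 92.4 CPM against 96.4, 73.5, 93.3 and 91.8 CPM, with -0.32 (SE 0.16). Cct8, the subunit with the highest mean CPM, was at 116, 138, 108 and 93.1 CPM against 91.5, 71.8, 162 and 91.9 CPM. In Cct8 adenine 3 was the highest of all 8 libraries and adenine 2 the lowest, and its -0.12 (SE 0.23) was 0.0086 with upper-quartile factors and -0.43 without adenine 3. In Tcp1, too, adenine 3 stood above its group, at 136 CPM where adenine 1, 2 and 4 had 61.3 to 80.3 CPM, and only control 2 was higher (138 CPM). The class median of -0.22 was -0.40 without adenine 3, -0.37 without control 4, -0.12 without adenine 2, -0.096 without control 2 and -0.074 with upper-quartile factors. Cct2, Cct4 and Cct5 had -0.19, -0.22 and -0.27.

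Both heat shock factors had fold changes near 0. Hsf1 was at 24.4, 24.9, 23.8 and 25.9 CPM in the controls and 25.1, 21.3, 17.0 and 26.6 CPM in the adenine libraries. The controls were tight, and adenine 1 and adenine 4 lay at their level while adenine 3 was lowest. Its log2 fold change was -0.14 (SE 0.15, interval -0.47 to 0.19) and -0.03 without adenine 3. Hsf2, a factor of development and proteotoxic stress, was at 13.9, 16.9, 12.3 and 15.6 CPM against 15.1, 13.6, 14.8 and 12.1 CPM, with -0.07 (SE 0.15, interval -0.40 to 0.25). Both were positive with upper-quartile factors (0.0069 and 0.07). HSF1 is controlled mainly at the level of the protein, which these data do not measure.

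**Figure D4:**
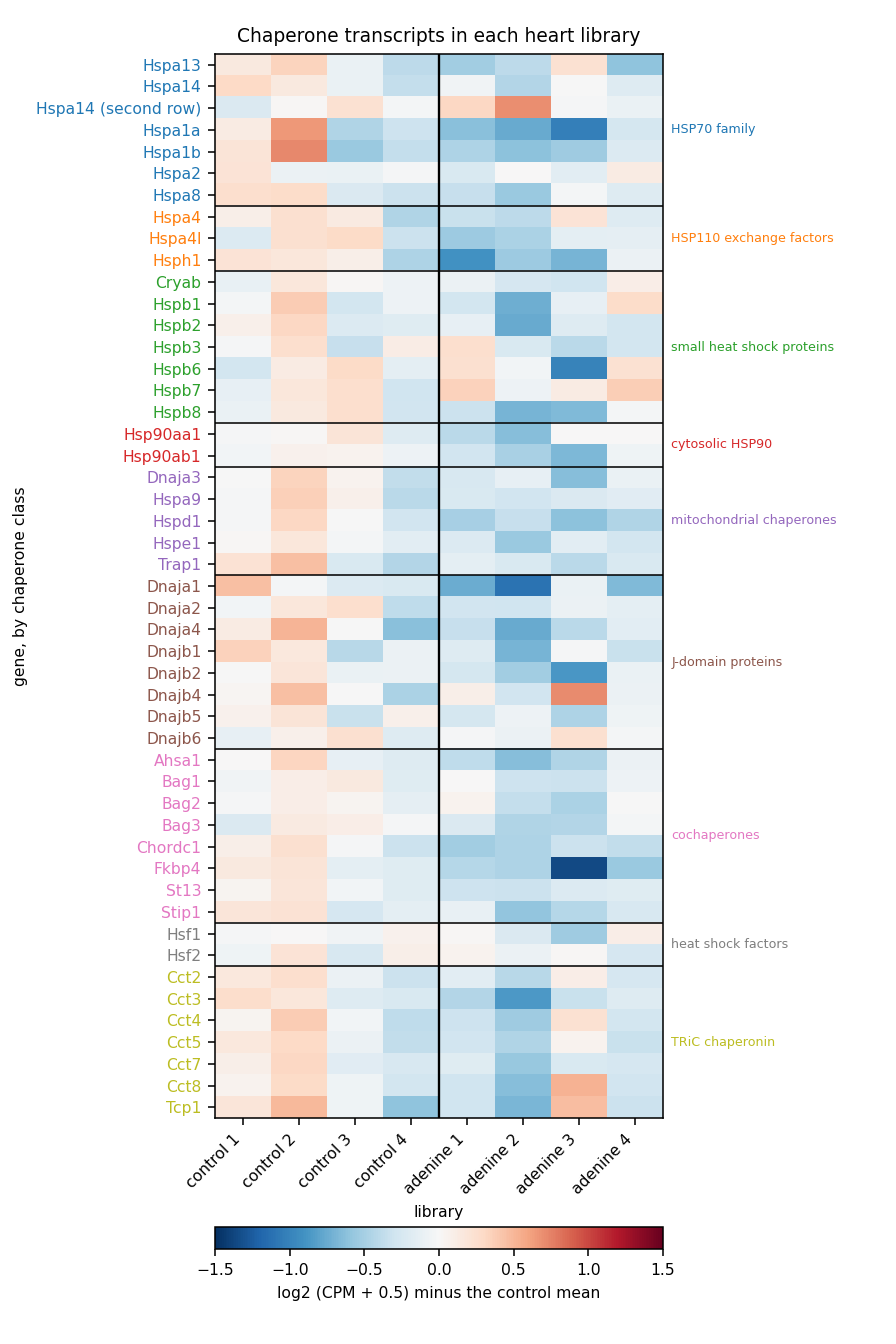
Each row's log2 (CPM + 0.5) minus its control mean (colour) in the 8 libraries, grouped by chaperone class. Control 2 was the highest library for 30 of the 49 rows and adenine 2 the lowest for 22. No such counts over all genes are given, so these cannot be read as particular to the members.

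The libraries of 1 diet also differed among themselves. The median member, relative to the control mean on the log2 scale, stood at 0.04, 0.21, -0.05 and -0.23 in control 1 to control 4 and at -0.27, -0.45, -0.22 and -0.18 in adenine 1 to adenine 4. Control 4 lay below adenine 3 and adenine 4. Total counts were 24107554 to 33886385 in the controls and 15626620 to 29831706 in the adenine libraries. The highest total belonged to control 2, which also held 4856 CPM of 4 atrial markers against 866 to 1088 CPM in the other controls. The lowest total belonged to adenine 2, which held 104.6 CPM of those atrial markers and the largest mitochondrial share, 41.9%. Nppa gave most of the atrial sum in some libraries, with 1043 of 1088 CPM in control 3 and 929.8 of 941.6 CPM in adenine 4. Another of the markers, Myl4, had 6.85 CPM in adenine 2, 7.74 CPM in adenine 4 and 23.5 CPM in control 3. The remaining libraries had 157 to 2054 CPM of Myl4, and Myl7 and Sln were low in the same libraries as Myl4. Without both libraries numbered 2, the members' median log2 fold change was -0.11 with 40 of 49 negative, and that of the genes above 10 CPM was -0.04. Control 2 had the lowest TMM factor, 0.871, against 0.914 to 1.09 in the other libraries, and a lower factor raises every CPM value of a library. The part of depth, scaling factor, atrial tissue or mitochondrial share in the differences between libraries was not tested.

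Adenine 3 stood apart in a different way. Its 6 macrophage markers summed to 2478 CPM, where adenine 1, 2 and 4 had 256 to 401 CPM and the controls 322 to 555 CPM. Lyz2 alone gave 2065 CPM of that sum. Each of the 6 was highest in adenine 3, Csf1r by least, at 86.1 CPM against 67.1 CPM in control 1. The 8 cardiomyocyte markers of adenine 3 summed to 30740 CPM, where adenine 1, 2 and 4 had 45060 to 52580 CPM and the controls 44730 to 57060 CPM. They did not fall alike. Myh6 had 7094 CPM in adenine 3 against 15830 to 18340 CPM in adenine 1, 2 and 4. Tnnt2, at 8925 CPM, lay within the 8279 to 10940 CPM of those libraries. The other markers of the list were lowest of the adenine libraries in adenine 3, Pln and Ttn by little. No marker of these or the other lists was at 0 in all libraries, and the cardiomyocyte levels match the labelled tissue. In bulk tissue, fewer cells of a type and less RNA per cell cannot be told apart. Adenine 3 was the lowest library for 13 rows, among them Fkbp4, Hspb6, Dnajb2 and Hsf1, and the highest for Cct8 and Dnajb4. The same counts over all genes are not given. The part of macrophage and muscle RNA in these values was not tested. Leaving adenine 3 out gave a members' median of -0.33, 46 negative rows, 9 rows lower without overlap (18.4%) and 0 called. With those 7 libraries 8.14% of all genes and 15.4% of the genes above 10 CPM were lower without overlap, and 0.144% of all genes were called lower. Summed markers were lower on adenine without overlap for the erythroid list (1657 to 3083 against 7005 to 26040 CPM, 4 of its 5 symbols being in the table), and smooth muscle markers (94.5 to 370.5 against 235 to 607 CPM) overlapped. Fibroblast markers summed to 593 to 882 CPM in adenine 1, 2 and 4, below the 1009 to 1525 CPM of the controls, and to 2035 CPM in adenine 3, where Col1a2 had 958 CPM. At an unadjusted p of 0.05, 4 of the 6 fibroblast markers were lower (list median -0.66), and Tcf21, Pdgfra and Dcn did not overlap between diets. Endothelial markers summed to 369 to 516 against 502 to 676 CPM, and 4 of 6 were lower at that p (list median -0.50), of which Tek and Pecam1 did not overlap. In edgeR 0 markers of either list were called with all 8 libraries, and DESeq2 called 3 fibroblast and 2 endothelial markers lower. Of the smooth muscle markers, 3 of 4 were lower at an unadjusted p of 0.05 (list median -0.94), and DESeq2 called 0. DESeq2 called all 4 erythroid markers lower (list median -2.25). Without adenine 3, edgeR called the 4 erythroid markers and 1 fibroblast marker lower. The part of these cell types in the members' values was not tested. The 7 immediate early genes, which respond to handling within minutes, had sums of 104 to 131 CPM with the standard diet and 84.8 to 146 CPM with adenine. Skeletal muscle markers (6.10 to 10.9 against 9.30 to 21.1 CPM) and adipocyte markers (3.28 to 36.9 against 7.13 to 14.7 CPM) were scarce.

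**Figure D5:**
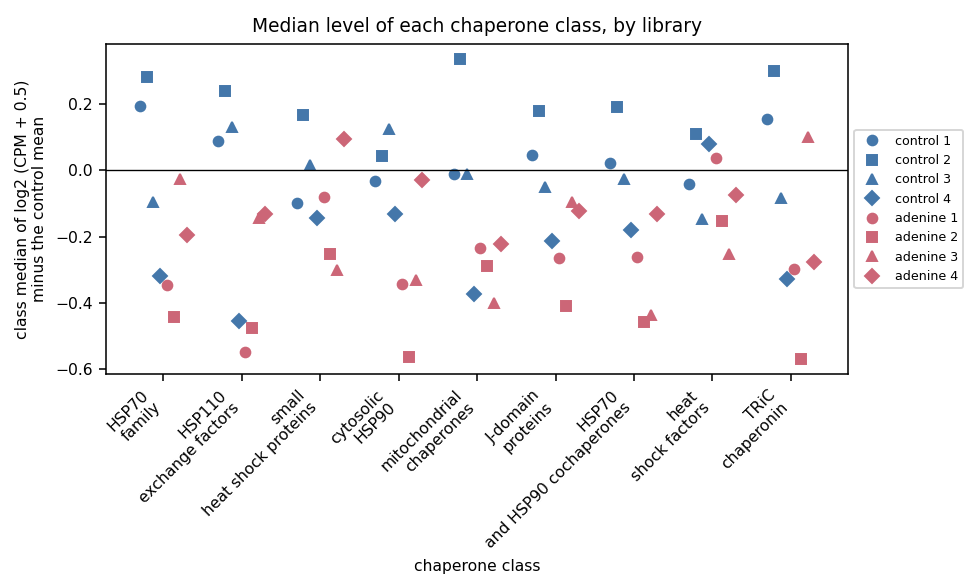
Median over the rows of each chaperone class of log2 (CPM + 0.5) minus the control mean, for each library (symbols; blue, control; red, adenine). In every class the medians of the 2 diets overlap, and in TRiC adenine 3 lies at 0.10 while the other adenine libraries lie between -0.57 and -0.28.

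Genes that work beside the members were followed in 6 further lists, and with all 8 libraries edgeR called none of them in either direction. As background, genes above 10 CPM were negative in 77.9%, with a median of -0.15, and 12.3% were lower at an unadjusted p of 0.05. For all genes tested these values were 45.8%, 0.05 and 6.63%. DESeq2 called Fkbp5 (adjusted p = 0.000335) and Dnajb13 (adjusted p = 4.80e-05) higher, and so did edgeR without adenine 3 (adjusted p = 0.0254 and 0.0339), where 0.178% of all genes were called higher. Of 19 other partners of HSP90 and HSP70, 17 were negative with a median of -0.16, an unadjusted p of 0.05 was passed by 3 in the lower and 1 in the higher direction, and the lowest p after Fkbp5 belonged to Ppid, the cyclophilin cochaperone of HSP90 (-0.40, SE 0.14). For 9 genes of prefoldin and the rest of TRiC the median was -0.10 and 0 had such a p, with Pfdn6 at -0.25 and Vbp1 at -0.24. In the DNAJC family, 21 of 26 were negative (80.8%) with a median of -0.13, near the values of genes above 10 CPM. At that p 2 were lower (7.69%), Dnajc28 (-0.64, SE 0.18) and Dnajc27 (-0.51, SE 0.21). Mitochondrial cochaperones and proteases had a median of -0.26 over 11 genes and 0 at that p, with Grpel1, the exchange factor of HSPA9, at -0.32 and Htra2 at -0.38. Of 6 further HSF1 targets 5 were negative, with a median of -0.38. Among them Cacybp, which binds the ubiquitin ligase SIAH1, had -0.44 (SE 0.16). Of 11 further family members that were tested, from 14 symbols, 4 were negative, the median was 0.21, and 1 was higher and 1 lower at that p. Dnajb13, known from motile cilia and sperm, had 0.969 to 1.39 CPM with the standard diet and 3.44 to 7.36 CPM with adenine, without overlap (log2 fold change 1.92, SE 0.32, adjusted p = 0.0681), and Hspa12a, a distant HSP70 relative, had -0.60 (SE 0.18).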

How the data were processed

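Total RNA from mouse heart, in 8 libraries, was analysed from the deposited table of raw read counts per gene. Per the submitters' processing notes, the authors used FastQC 0.11.9 and STAR 2.7.6a with GRCm38.p6. The sources used here name no counting program, annotation or strand setting. Genes were filtered with filterByExpr, scaled with TMM factors and tested with edgeR 4.0.16 (quasi-likelihood, all 8 libraries, no covariate) in R 4.3.3, with Benjamini-Hochberg adjustment over 20093 genes and a threshold of 0.05. The common dispersion corresponds to a coefficient of variation of 0.293 between libraries. Total counts were 15626620 to 33886385 per library, which limits the precision of low genes most. DESeq2 1.42.0, limma 3.58.1 and the other settings of the closing section were alternatives, and the edgeR fit was tested on simulated data. Sums and ratios of pairs were compared by exact permutation.

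The members and lists were chosen with earlier results of these data known. Values in every library are given for called members, for the 2 with the lowest p and the one with the highest mean CPM in each class, and for Hspa1a, Hspa1b, Hsf1 and Hspb1; members whose groups do not overlap may be named too. From the pathway lists, called genes and the 2 with the lowest p are named, except 1 that is not reported here. Positions are from GENCODE (GRCm38), in which 27275 of 27304 identifiers were found, and relative log2 values use CPM + 0.5.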

Additional observations from a re-analysis of the deposited data

Results flagged for a closer look

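Of 108 groups of 4 values checked for a sample far from the others (Dixon's gap over the range), 0 were flagged. These groups came from 54 quantities split by diet, and the result holds for those quantities only. It does not show that no library stood apart. Adenine 3 had a macrophage marker sum of 2478 CPM, of which Lyz2 gave 2065 CPM, where adenine 1, 2 and 4 had sums of 256 to 401 CPM. Control 2 had an atrial marker sum of 4856 CPM, where the other controls had 866 to 1088 CPM.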

How the results depend on the processing

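No setting tried called a member in edgeR or limma-voom, and DESeq2 called 1 lower (Fkbp4). Counts over all genes, 8 higher and 0 lower in edgeR, depended on the tool and the libraries: 153 and 175 with DESeq2, 18 and 1 with upper-quartile factors, 1 lower without the low-count filter, 5 higher with limma-voom, and 1 lower without both libraries numbered 2, an alternative added after seeing the data, as were limma-voom and the background of genes above 10 CPM. Leaving out 1 library gave 1 to 37 higher and 0 to 30 lower: 1 higher without control 1, 3 or 4, 3 without control 2 or adenine 1, 21 without adenine 4 and 37 without adenine 3. Of genes lower there were 2 without control 2, 6 without adenine 4 and 30 without adenine 3. Members lower without overlap were 3 with upper-quartile factors and 5 to 13 with 1 library left out, with 13 (26.5%) without control 4 and 9 (18.4%) without adenine 3 or adenine 4. In these 3 settings 9.59%, 8.14% and 4.90% of all genes, and 19.2%, 15.4% and 8.39% of those above 10 CPM, were lower without overlap, and with upper-quartile factors 1.57% and 2.85%. The members' median was -0.11 without both libraries numbered 2 and -0.37 to -0.17 with 1 library left out. Without control 2 the median was -0.17 for the members and -0.19 for the HSP70 family, and without control 3 it was -0.22 for HSP110. With upper-quartile factors the class medians were -0.19 for HSP110, -0.17 for cochaperones, -0.16 for cytosolic HSP90, -0.14 for the HSP70 family and -0.13 for J-domain proteins. The median of the heat shock factor class was 0.037 with upper-quartile factors. With those factors the sign turned for Cct8 (0.0086), Cryab (0.017), Hsf1 (0.0069), Hsf2 (0.066), Hspa2 (0.074) and Hspb6 (0.075). Without both libraries numbered 2 it turned for Cct4 (0.044), Cct8 (0.15), Hsf2 (0.031), Hspb1 (0.12) and Tcp1 (0.15). With 1 library left out it turned for Cct8 (-0.43 to 0.018), Dnajb4 (-0.14 to 0.30), Dnajb6 (-0.063 to 0.13) and Hspb6 (-0.23 to 0.12), and the log2 Hsp90aa1 to Hsp90ab1 difference ran from -0.066 to 0.22. The cause was not tested.

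The labels do not say whether the replicate numbers pair the samples. Deviations of same-numbered libraries correlated at 0.084, -0.308, -0.109 and 0.193, and 1 of 8 libraries correlated best with its own number. Such correlations cannot decide on a pairing, because other differences between the libraries enter them too. The replicate block gave 16 genes higher and 16 lower, 0 members called and a members' median of -0.26. Depth limits the low members most, with Hspa1a resting on 41 reads in its lowest library.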
